A study of Mus musculus with 15 samples.

Results

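A pair of silica nanoparticles with the same nominal diameter, 100 nm, was compared in mouse macrophages after 6 h: hollow mesoporous HMSNPs, which have a hollow core and a porous shell, and SNP100, which are solid and nonporous. The comparison held 6 libraries of the 15 in the series, 3 HMSNP-treated and 3 SNP100-treated, chosen by their labels. RAW 264.7 cells, a macrophage-like line grown from a tumor of a mouse infected with Abelson leukemia virus, were used in all groups, so that the results concern 1 line in culture and not primary macrophages. HMSNPs were given at 200 µg/mL and SNP100 at 50 µg/mL, each the highest dose that was nontoxic for that particle, and nontreated cells (3 libraries) were collected at the same time. Dose, porosity and hollow core therefore differed together between the particles, the library names of each group carry a number of their own whose meaning the labels do not give, and the parts of these in any difference cannot be told apart. Nothing in the labels says that the libraries of a group came from separate cultures, and p-values then measure the spread between these libraries, which may be technical.

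Macrophages take up silica particles into vacuoles that fuse with lysosomes. Several transcription programs are known to follow the state of such a cell. ATF4 is a factor whose translation rises when the kinase pathway called the integrated stress response is active, and it drives genes of amino acid import and synthesis, tRNA charging and the stress effectors DDIT3, TRIB3 and CHAC1. SREBP2 and SREBP1 are released from the endoplasmic reticulum when its sterol level is low and drive cholesterol and fatty acid synthesis. Type I interferon signals through STAT2 and IRF9 to antiviral genes, NRF2 drives antioxidant and heme-degrading genes, and TFEB drives genes of the lysosome.

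Counts on genes summed to between 33391045 and 42617812 in the 6 libraries. Of 57186 genes, 32644 had 0 counts in all 6 libraries, and 17627 had at least 10 counts over them and were tested, 12449 of them protein-coding. Libraries of a group were not copies of each other: the chi-square statistic per gene between 2 libraries lay between 4.76 and 13.9 in these 2 groups, where counting error alone gives about 1. It lay between 66.2 and 205 among the nontreated controls, which differed more from each other, so the controls are given per library and only as levels. Levels are given as CPM, counts scaled to the library total, on one TMM scale and are not divided by gene length. Fold changes are log2 values of HMSNP over SNP100 from the fit of the 6 libraries, so that negative values are lower in HMSNP, and a gene is said to rise, fall or be called only at an adjusted p under 0.05. The macrophage label was checked with 15 marker genes, none of which was at 0 and which summed to 19010 to 19943 CPM in SNP100 and 18405 to 19657 in HMSNP. The marker lists of other cell types held both genes at 0 in all 6 libraries and genes with counts. At 0 were 7 of 12 T cell genes (Cd3d, Cd3e, Cd3g, Cd8a, Trac, Trbc1 and Trbc2) and 3 of 8 B cell genes (Igkc, Ms4a1 and Pax5). So were 4 of 10 stromal genes (Col1a2, Col3a1, Dcn and Lum). Of 12 epithelial and endothelial genes 5 were at 0 (Epcam, Krt5, Krt8, Krt14 and Krt18). The 12 T cell genes summed to 25.6 to 29.1 CPM in SNP100 and 15.4 to 16.4 in HMSNP, in which Cd28 was the member called (log2 fold change -1.01, adjusted p = 1.43e-06). The B cell list summed to 16.7 to 21.2 and 18.7 to 20.1 CPM, the stromal list to 0.468 to 0.544 and 0.558 to 0.902, and the epithelial and endothelial list to 3.99 to 4.5 and 4.56 to 5.11, with no member called.

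In the quasi-likelihood test of edgeR, adjusted by Benjamini-Hochberg, 4727 genes (26.8% of those tested) differed between the particles. HMSNP was higher for 2616 genes (14.8%) and lower for 2111 (12%). Most differences were small: 4424 of the called genes differed by less than 2-fold, and the median absolute log2 fold change of the called genes was 0.264. A difference of at least 2-fold was called higher in HMSNP for 118 genes (0.669%) and lower for 185 (1.05%). Calls depend on level, and among the 8776 genes with a mean of at least 10 CPM the shares were 25.1% higher and 18.9% lower, 44% in all. Shares of the gene lists called, given below, are to be read against the 26.8% of all tested genes and the 44% of these better expressed ones. With all 15 libraries in one model, nontreated controls included, 460 genes were called higher and 437 lower, and 61 and 99 of at least 2-fold. With the 12 treated libraries alone in the model the counts were 2377, 2070, 115 and 192. For 95 called genes the groups overlapped.

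**Figure D1:**
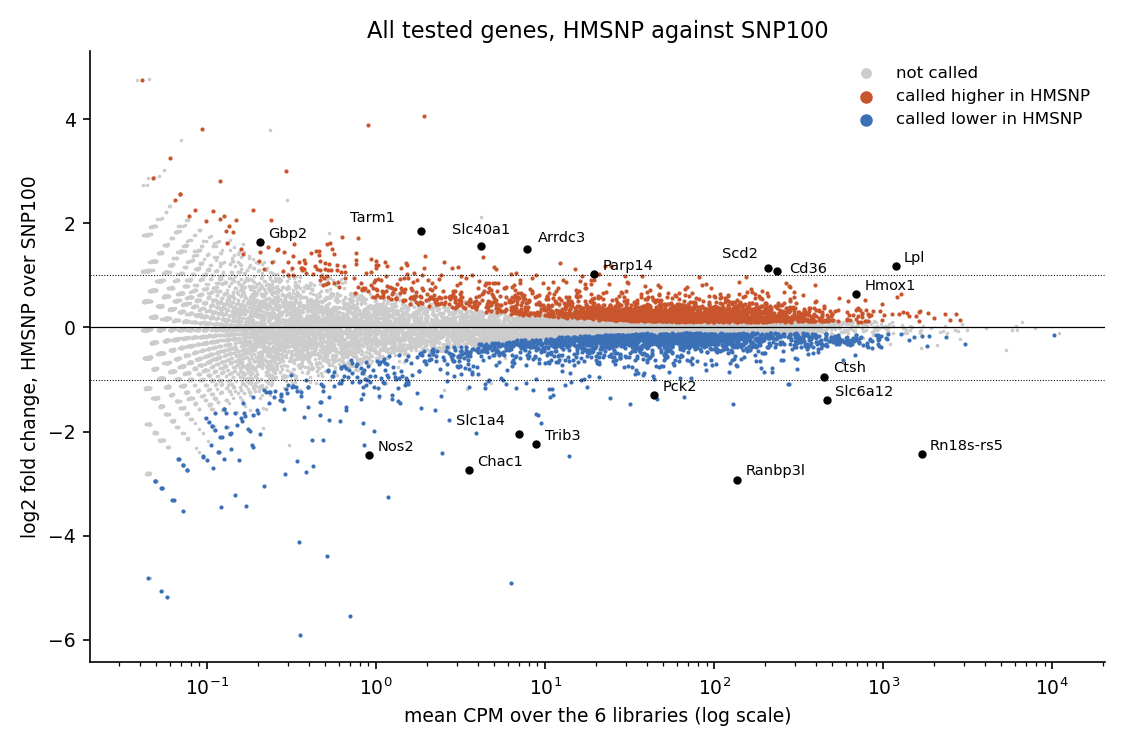
Mean CPM over the 6 libraries (log scale, x) against the log2 fold change of HMSNP over SNP100 (y) for the 17627 tested genes, with called genes in orange (2616 higher in HMSNP) and blue (2111 lower), named genes in black and dotted lines at 2-fold. Most called genes lie within the dotted lines, and Ranbp3l, Chac1 and Trib3 stand below them.

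Ranbp3l had the smallest p of all genes tested. It lies at chr15:8997242-9068799 on GRCm39 and encodes a relative of Ran-binding protein 3, a family that acts in nuclear export. Its level was 246, 239 and 239 CPM in the SNP100-treated libraries, 31.2, 32.6 and 31.0 CPM in the HMSNP-treated libraries and 252, 288 and 193 CPM in the nontreated controls (log2 fold change -2.92, SE 0.040, adjusted p = 5.68e-14). The HMSNP libraries stood far below every other library shown, at a level 7.58 times lower than SNP100.

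Among genes with a mean of at least 1 CPM and no overlap between the groups, the largest decreases in HMSNP in protein-coding genes, after Ranbp3l and 3 genes of the ATF4 response described below, were in Chst1, Tent5c, Rab15 and Hal. Chst1, which adds sulfate to keratan sulfate, read 6.61, 5.36 and 6.81 CPM in SNP100 against 1.5, 1.46 and 1.58 in HMSNP and 6.61, 6.07 and 7.39 in the controls (log2 fold change -2.03, SE 0.14, adjusted p = 3.08e-07). Tent5c, a poly(A) polymerase, read 15.9, 16 and 12.5 CPM in SNP100 and 4.26, 4.24 and 3.87 in HMSNP, with the controls at 5.33, 7.32 and 3.31 (log2 fold change -1.84, SE 0.10, adjusted p = 1.08e-07). The controls thus lay with SNP100 for Chst1 and near HMSNP for Tent5c. The small GTPase gene Rab15 and Hal, which encodes histidine ammonia-lyase, had log2 fold changes of -1.77 (SE 0.14) and -1.68 (SE 0.13).

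The ranking also held Rn7sk, the 7SK RNA made by RNA polymerase III (log2 -3.26), Rn18s-rs5, an 18S ribosomal RNA gene (log2 -2.44), and Mir6236 (log2 -2.46) and Gm15564 (log2 -2.40), annotated as a miRNA and a lncRNA gene. Rn18s-rs5 read 2182, 5141 and 1246 CPM in SNP100, 606, 545 and 421 in HMSNP and 19451, 638 and 894 in the controls (SE 0.36, adjusted p = 0.00027). SNP100 replicate 2 and control replicate 1 stood far above the others of their groups, and the other controls lay near HMSNP. The libraries were selected for poly(A) tails, which 18S and 7SK RNA lack, and none of these 4 genes was called with all 15 libraries in the model.

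The largest increases in HMSNP of the same kind were Tarm1 (log2 1.85), Slc40a1 (log2 1.55), Arrdc3 (log2 1.51) and Ifi211 (log2 1.38). Tarm1, which encodes an activating receptor of myeloid cells, read 0.806, 0.844 and 0.748 CPM in SNP100, 2.56, 3.24 and 2.84 in HMSNP and 1.13, 1.59 and 1.35 in the controls (SE 0.17, adjusted p = 4.84e-06). Arrdc3, an arrestin-like adaptor gene, read 4.24, 3.86 and 4.15 CPM in SNP100, 11, 10.7 and 12.9 in HMSNP and 7.34, 7.17 and 5.70 in the controls (SE 0.098, adjusted p = 2.78e-07). Both genes were highest in the HMSNP libraries, without overlap with the other groups. Map1a, Gm17749, Acap1, Zfp395, Filip1l, Gm20632, Rsad2 and Gm18445 completed the 12, with log2 fold changes from 1.20 to 1.35.

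Genes of the ATF4 response were lower in HMSNP than in SNP100. Of 42 tested members of the list, 30 were called lower, 2 were called higher and 10 were not called (76.2% called, against 26.8% of all tested genes), and the median log2 fold change was -0.55, against -0.003 over all tested genes. All 7 members that passed 2-fold were lower. Of the 30, the median control lay above the SNP100 mean for 24, which is given as a level without a test.

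The stress effectors Chac1 and Trib3 had the largest differences of the list. Chac1 (chr2:119180757-119184866), an enzyme that degrades glutathione, read 5.72, 6.01 and 6.73 CPM in SNP100, 0.735, 1.17 and 0.825 in HMSNP and 7.28, 7.60 and 6.90 in the controls (log2 fold change -2.74, SE 0.16, adjusted p = 1.38e-07). Trib3 (chr2:152179337-152191958), a pseudokinase that restrains AKT and ATF4, read 14.6, 14.6 and 14.8 CPM in SNP100, 3.06, 3.39 and 2.77 in HMSNP and 17.9, 21.5 and 20.8 in the controls (log2 fold change -2.25, SE 0.089, adjusted p = 8.06e-09). For both genes every HMSNP library stood below every SNP100 library and every control. Ddit3, which encodes the factor CHOP, read 14.6, 15.6 and 15.5 CPM in SNP100, 5.91, 5.60 and 6.42 in HMSNP and 9.56, 9.28 and 10.3 in the controls (log2 fold change -1.34, SE 0.076, adjusted p = 1.08e-07). Here SNP100 was above and HMSNP below the controls, and Ddit3 overlaps Mars1 on the opposite strand, whose own log2 fold change was -0.43. Atf4 itself read 271, 277 and 285 CPM in SNP100, 160.4, 159 and 164 in HMSNP and 269.9, 276 and 350.1 in the controls (log2 fold change -0.78, SE 0.038, adjusted p = 4.09e-08), and Atf5 had a log2 fold change of -0.74 (SE 0.046). Nupr1, a small stress-induced chromatin protein gene, had -1.35 (SE 0.061), and Ddit4, which encodes an inhibitor of mTORC1, had -0.81 (SE 0.096).

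Genes of amino acid synthesis and transport were called lower as well. Asns, which makes asparagine, read 171, 165 and 169 CPM in SNP100, 97.3, 109 and 96.9 in HMSNP and 181, 193 and 213 in the controls (log2 fold change -0.72, SE 0.047, adjusted p = 2.63e-07). In the serine pathway Psph had -0.87 (SE 0.049), Phgdh -0.50 (SE 0.041) and Psat1 -0.42 (SE 0.039) as log2 fold changes, all called lower. The mitochondrial folate enzymes Aldh1l2 (log2 -0.93), Mthfd2 (log2 -0.74) and Shmt2 (log2 -0.51) were called lower too. Pck2, the mitochondrial phosphoenolpyruvate carboxykinase, read 62.1, 65.0 and 62.3 CPM in SNP100, 25.7, 25.3 and 25.1 in HMSNP and 71.0, 77.3 and 83.1 in the controls (log2 fold change -1.31, SE 0.042, adjusted p = 8.36e-10). Slc1a4, a carrier of alanine, serine and cysteine, read 12.2, 11 and 10.6 CPM in SNP100, 2.53, 2.76 and 2.84 in HMSNP and 16.8, 20.3 and 12.2 in the controls (log2 fold change -2.04, SE 0.097, adjusted p = 3.14e-08). For Pck2 and Slc1a4 too, HMSNP lay below every other library shown. Of the other transporters, the neutral amino acid carrier Slc38a2 (log2 -0.61, SE 0.036) and the glycine carrier Slc6a9 (log2 -1.18, SE 0.12) fell. Other carriers did not pass the test: Slc7a5, the leucine carrier, had a log2 fold change of -0.004 (95% interval -0.09 to 0.08), and Slc1a5, a glutamine carrier, 0.01 (95% interval -0.08 to 0.11). Slc7a11, the cystine carrier, read 96.8, 101 and 87.8 CPM in SNP100 and 102, 148 and 101 in HMSNP, where HMSNP replicate 2 stood above the rest (log2 fold change 0.31, SE 0.11, adjusted p = 0.0605). Gpt2 (log2 -0.76, SE 0.051) and Got1 (log2 -0.31, SE 0.037), which pass amino groups between amino acids and keto acids, and Cth, which makes cysteine (log2 -0.81, SE 0.12), fell. Stc2, a secreted calcium-binding glycoprotein, read 43.8, 47.9 and 45.9 CPM in SNP100, 24.1, 22.8 and 26.9 in HMSNP and 55.9, 51.2 and 46.4 in the controls (log2 fold change -0.88, SE 0.061, adjusted p = 3.88e-07). It was lower in every HMSNP library than in any other library shown. Eif4ebp1, the translation brake (log2 -0.59, SE 0.047), and Ppp1r15a, which encodes the phosphatase subunit that resets eIF2 (log2 -0.29, SE 0.055), fell, whereas Sesn2 (log2 -0.02, adjusted p = 0.83) and Gdf15 (adjusted p = 0.155) were not called, the latter with 0, 0 and 2 counts in HMSNP, which is at the floor. The 2 members called higher were Atf3, an early stress factor (log2 fold change 0.30, SE 0.044, adjusted p = 0.000225), and Rcn1, a calcium-binding protein of the secretory pathway (log2 0.21, SE 0.043). With all 15 libraries in the model, 26 members were called lower and 1 higher.

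**Figure D2:**
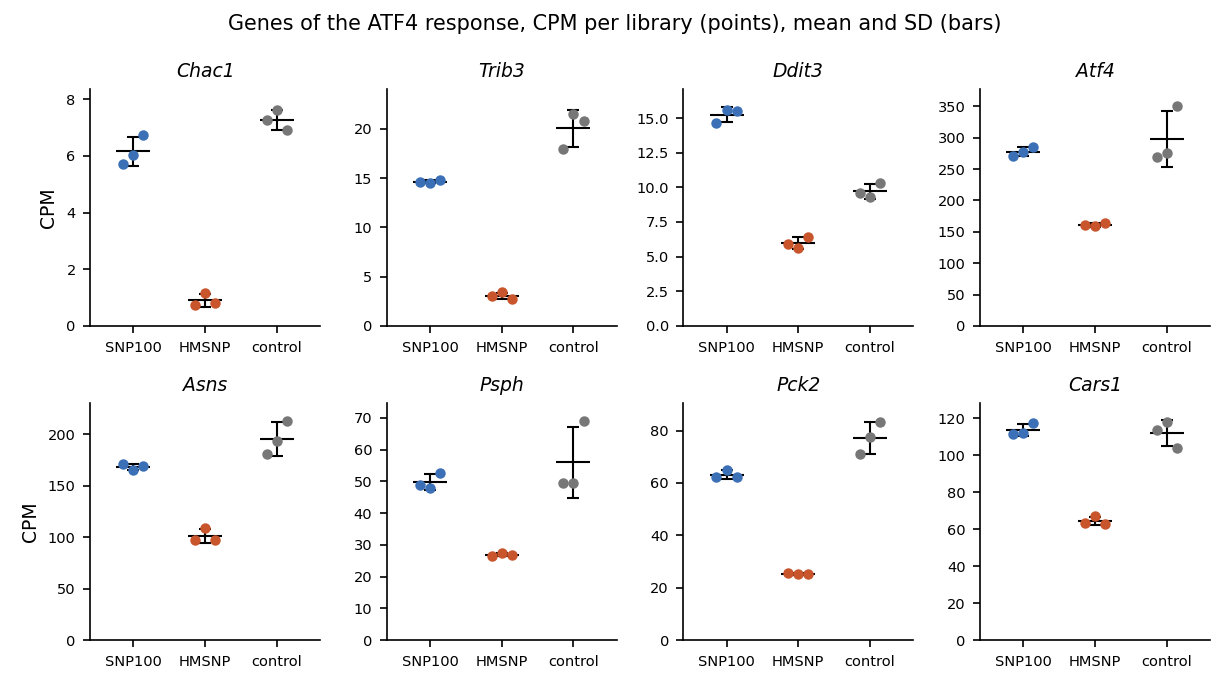
CPM per library (y, from 0) of 8 genes of the ATF4 response and tRNA charging in the SNP100-treated, HMSNP-treated and nontreated groups, with the mean and SD of 3 libraries as bars. The HMSNP points lie below both other groups in every panel.

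The C/EBP-ATF element, TGATGNAA, through which ATF4 and its partners act, was sought on both strands of the 250 bases before the start of the canonical transcript of 12433 tested protein-coding genes (GRCm39). Where a gene has longer transcripts that begin further upstream, as Chac1 has, these windows lie inside them. The element was present in 8 of 42 promoters of the list (19%) and in 2.2% of all promoters, and in 5 of the 30 promoters of members called lower. The 30 bases around the match are shown for Chac1 (chr2:119181519-119181548), Ddit3 (chr10:127126350-127126379) and Pck2 (chr14:55777609-55777638), all on the plus strand, because these were the 3 members with the largest called decreases and a match. Capitals mark the element, which in all 3 is read on the opposite strand.
Chac1: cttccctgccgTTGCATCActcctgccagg
Ddit3: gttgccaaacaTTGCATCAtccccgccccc
Pck2: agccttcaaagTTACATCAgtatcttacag

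Cytosolic tRNA synthetases, which load amino acids onto tRNA, divided by member. Of 20 tested, 11 were called lower, 1 higher and 8 were not called, with a median log2 fold change of -0.19 (60% called, and 0 higher and 8 lower with all 15 libraries). Cars1, for cysteine, read 112, 112 and 118 CPM in SNP100, 63.4, 67.2 and 63.1 in HMSNP and 114, 118 and 104 in the controls (log2 fold change -0.81, SE 0.042, adjusted p = 5.82e-08), and the HMSNP libraries were below all others. Aars1 (log2 -0.63, SE 0.036) and Sars1 (log2 -0.60, SE 0.037), for alanine and serine, followed. Wars1, for tryptophan, had 0.03 (95% interval -0.05 to 0.10) and Eprs1, for glutamate and proline, 0.03 (95% interval -0.05 to 0.11), neither of which was called. The higher one, Farsb (log2 0.11, adjusted p = 0.0394), encodes a subunit of the phenylalanine enzyme and was called in 3 of the 15 alternative fits.

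Chaperones and sensors of the endoplasmic reticulum went the other way. Of 23 tested members, 14 were called higher in HMSNP and 1 lower, with a median log2 fold change of 0.18 (65.2% called). Hspa5, the chaperone BiP, read 1453, 1442 and 1517 CPM in SNP100, 1875, 1836 and 1770.0 in HMSNP and 1298, 1307 and 1502 in the controls (log2 fold change 0.32, SE 0.042, adjusted p = 8.49e-05), so that HMSNP was above both groups. Sel1l, of the degradation machinery, had 0.42 (SE 0.040), the sensor Atf6 0.38 (SE 0.039) and the chaperone Hsp90b1 0.23 (SE 0.038). The member called lower was Dnajb9, a co-chaperone (log2 fold change -0.36, SE 0.060, adjusted p = 0.000573), and Xbp1, the factor spliced by IRE1, was not called (log2 -0.08, adjusted p = 0.105). Only 2 members were called higher and 1 lower with all 15 libraries in the model.

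Genes of cholesterol and fatty acid synthesis were higher in HMSNP than in SNP100. Of 35 tested, 30 were called higher, 1 was called lower and 4 were not called (88.6% called), and the median log2 fold change was 0.43. With an offset that takes out how counts depend on transcript length in each library, 29 were called higher, and with all 15 libraries in the model 19.

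Scd2 (chr19:44281613-44295303), which makes monounsaturated fatty acids, was the member past 2-fold, at 135, 129 and 128 CPM in SNP100, 286, 288 and 282 in HMSNP and 151, 168 and 142 in the controls (log2 fold change 1.14, SE 0.037, adjusted p = 8.36e-10). Its HMSNP libraries agreed closely with each other and exceeded all controls. Hmgcs1, which makes HMG-CoA from acetyl units, read 118, 122 and 112 CPM in SNP100, 172, 166 and 157 in HMSNP and 107, 120.1 and 104 in the controls (log2 fold change 0.50, SE 0.045, adjusted p = 4.92e-06). Cyp51, which removes a methyl group from lanosterol, read 117, 122 and 123 CPM in SNP100, 185, 184 and 176 in HMSNP and 126, 134 and 155 in the controls (log2 fold change 0.60, SE 0.040, adjusted p = 2.98e-07). For both, every HMSNP library exceeded every SNP100 library and every control. Along the sterol pathway the log2 fold changes were 0.62 for Idi1, 0.47 for Sqle and 0.66 for Hsd17b7, with SEs of at most 0.051. Scd1, the close relative of Scd2, read 8.17, 8.03 and 7.56 CPM in SNP100, 15.5, 14.8 and 13.1 in HMSNP and 8.13, 10.3 and 5.96 in the controls, highest in HMSNP (adjusted p = 5.43e-06). Fatty acid genes had 0.34 for Fasn, 0.44 for Acaca and 0.88 for Scd1. Fasn and Acaca were not called with all 15 libraries in the model (adjusted p = 0.419 and 0.47). For Acaca, control replicate 2 (70.0 CPM) lay among the HMSNP libraries (75.5, 80.6 and 65.2 CPM). The regulators Srebf2 (log2 0.47), Srebf1 (log2 0.25) and Insig1 (log2 0.49), which holds SREBP in the endoplasmic reticulum, were called higher as well. Me1, malic enzyme, which supplies NADPH, was the member called lower (log2 fold change -0.38, SE 0.053, adjusted p = 0.000179), while Insig2 (log2 -0.07) and Ebp (log2 0.02) were among those not called. For 27 of the 30 the median control lay nearer the SNP100 mean than the HMSNP mean or beyond it, a description without a test.

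The sterol element TCACNCCAC, on either strand of the same 250 bases, matched 4 of 35 promoters of the list (11.4%) and 1.03% of all promoters. The 29 bases around the match are printed for the 3 with the largest changes, Hmgcs1 (chr13:120151740-120151768, plus strand), Acaca (chr11:84063840-84063868, plus strand) and Fasn (chr11:120715063-120715091, minus strand), with the element in capitals. The other match lay before Acss2 (log2 0.29, adjusted p = 0.0329), whose call held in 7 of the 15 alternative fits and 1 of the 6 that left out a library.
Hmgcs1: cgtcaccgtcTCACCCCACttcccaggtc
Acaca: acaggcacacTCACACCACaccctgggtg
Fasn: cgcgcgggcaTCACCCCACcggcggcggc

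Genes of lipid uptake, storage and efflux did not share 1 direction: of 20 tested, 5 were called higher and 6 lower, with a median log2 fold change of 0.01 (55% called, and 3 higher and 4 lower with all 15 libraries). Lpl, the secreted lipase that frees fatty acids from lipoproteins, read 731, 669.9 and 793 CPM in SNP100, 1639, 1640.3 and 1636 in HMSNP and 909, 878 and 852 in the controls (log2 fold change 1.17, SE 0.055, adjusted p = 2.63e-08). Cd36, a scavenger receptor that imports fatty acids and oxidized lipoprotein, read 160.4, 148 and 144 CPM in SNP100, 300.2, 339 and 311 in HMSNP and 250.02, 249 and 232 in the controls (log2 fold change 1.08, SE 0.050, adjusted p = 2.63e-08). Both genes were lowest in SNP100 and highest in HMSNP, with the controls between. The cholesterol exporters split: Abca1 was called higher (log2 fold change 0.58, SE 0.14, adjusted p = 0.00857) and Abcg1 lower (log2 fold change -0.81, SE 0.048, adjusted p = 1.37e-07), and the fatty acid binding protein gene Fabp5 fell (log2 -0.64, SE 0.050). Fabp4, a related gene, read 0.806, 0.789 and 0.914 CPM in SNP100, 0.411, 0.530 and 0.252 in HMSNP and 0.304, 0.173 and 0.390 in the controls (log2 fold change -1.08, SE 0.28, adjusted p = 0.0116), a fall at low level. Mylip, which encodes a ubiquitin ligase induced by LXR, was called higher (log2 0.51, SE 0.061), and Nr1h3, the sterol-sensing receptor LXR alpha, slightly lower (log2 -0.18, SE 0.053).

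**Figure D3:**
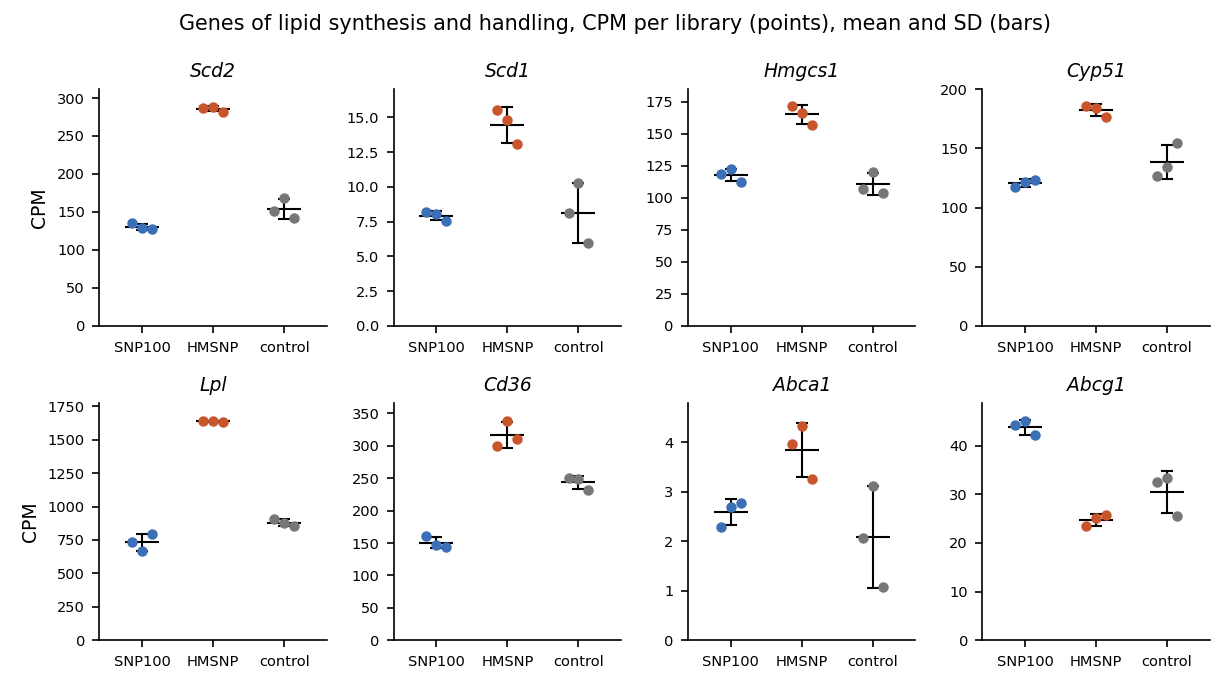
CPM per library (y, from 0) of 8 genes of lipid synthesis and handling in the SNP100-treated, HMSNP-treated and nontreated groups, with the mean and SD of 3 libraries as bars. HMSNP lies above SNP100 in each panel except Abcg1, where it lies below.

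Interferon-stimulated genes were called higher in HMSNP for 23 of 43 tested members. Another 1 was called lower and 19 were not called (55.8% called, against 26.8% of all tested genes), with a median log2 fold change of 0.41. Parp14, an ADP-ribosyltransferase, read 13.9, 12.1 and 12.5 CPM in SNP100, 25.1, 29.3 and 23.4 in HMSNP and 16.1, 23.1 and 8.02 in the controls (log2 fold change 1.02, SE 0.082, adjusted p = 1.85e-06). Oas3, which makes the oligoadenylate that activates RNase L, read 24.2, 20.4 and 20.4 CPM in SNP100, 39.6, 39.4 and 39.0 in HMSNP and 26.4, 31.5 and 18 in the controls (log2 fold change 0.87, SE 0.060, adjusted p = 4.2e-07). The HMSNP libraries exceeded SNP100 for both, and the controls were spread, with control replicate 3 below every SNP100 library. Rsad2, the antiviral enzyme viperin, read 1.14, 1.03 and 0.609 CPM in SNP100, 2.23, 2.33 and 1.83 in HMSNP and 1.95, 2.26 and 1.43 in the controls (log2 fold change 1.20, SE 0.22, adjusted p = 0.00111), so that the controls overlapped HMSNP.

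Sensors of viral RNA rose together, Dhx58 (log2 0.82, SE 0.10), Ifih1 (log2 0.57, SE 0.11) and Rigi (log2 0.47, SE 0.090), as did Irf9 (log2 fold change 0.61, SE 0.080, adjusted p = 9.12e-05) and Stat2 (log2 0.44, SE 0.072). The controls overlapped HMSNP for Dhx58, Rigi and Irf9 but not for Ifih1 and Stat2. Ifih1, Rigi and Stat2 were not called with all 15 libraries in the model. Isg15 (log2 0.11), Ifit1 (log2 0.13) and Irf7 (log2 0.30, adjusted p = 0.0523) were not called. The guanylate-binding protein genes Gbp2, Gbp7 and Gbp3 had 1.63, 0.93 and 0.75, at levels under 3 CPM in each of the 6 libraries, and the call of Gbp2 held in 10 of the 15 alternative fits. Usp18, the brake of the interferon receptor, was the member called lower (log2 fold change -0.53, SE 0.073, adjusted p = 0.000151). Among the 23 called higher, the median control lay below the SNP100 mean for 1, between the particles for 15 and above the HMSNP mean for 7, as a description without a test. With all 15 libraries in the model 9 were called higher, and the Oas, Gbp and Ifit families hold close copies among which counting may divide reads.

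The interferon element, a pair of GAAA blocks 2 bases apart, matched 18 of 43 promoters of the list (41.9%) and 3.1% of all promoters, and 7 of the 23 called higher. The 30 bases around the match before Rsad2 (chr12:26506552-26506581), Oas2 (chr5:120887970-120887999) and Oas3 (chr5:120915780-120915809), all on the minus strand, are shown as the matching members with the largest increases, and capitals mark the element.
Rsad2: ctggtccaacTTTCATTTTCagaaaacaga
Oas2: cacacttgagTTTCGATTTCctaggttcct
Oas3: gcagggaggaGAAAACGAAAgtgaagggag

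MHC class I presentation genes did not move 1 way, with 5 of 20 tested called higher, 4 lower and a median log2 fold change of -0.02 (45% called, and 2 higher and 1 lower with all 15 libraries). Tap1, a peptide transporter subunit, rose (log2 fold change 0.31, SE 0.045, adjusted p = 0.000219), whereas H2-M3, which presents formylated peptides, fell (log2 fold change -0.75, SE 0.046, adjusted p = 2.12e-07).

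Of 30 tested NF-kB targets and feedback genes 13 were called higher in HMSNP and 5 lower, with a median log2 fold change of 0.18 (60% called, and 7 higher and 4 lower with all 15 libraries). The subunit genes Nfkb2 (log2 0.48, SE 0.051) and Relb (log2 0.39, SE 0.056), the inhibitor Nfkbie (log2 0.52, SE 0.076) and the adhesion molecule Icam1 (log2 fold change 0.50, SE 0.059, adjusted p = 4.39e-05) rose. Ptgs2, the inducible cyclooxygenase, read 22.6, 22.7 and 30.8 CPM in SNP100, 44.9, 57.0 and 47.1 in HMSNP and 47.2, 48.2 and 32.2 in the controls (log2 fold change 0.98, SE 0.11, adjusted p = 3e-05), and 2 of the controls lay with HMSNP. Nos2, the inducible nitric oxide synthase, read 1.20, 1.22 and 2.22 CPM in SNP100, 0.176, 0.451 and 0.206 in HMSNP and 1.34, 1.04 and 0.989 in the controls (log2 fold change -2.45, SE 0.36, adjusted p = 0.000221). It was lower in every HMSNP library, at levels that rest on few counts. Nfkbiz (log2 -0.87), Cd83 (log2 -0.64), Ier3 (log2 -0.66) and Cflar (log2 -0.36) were the others called lower. Tnfaip3, the feedback inhibitor A20, was not called (log2 0.17, adjusted p = 0.0911).

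Of 45 cytokine and chemokine genes, 30 were tested, with 7 called higher and 8 lower (50% called, and 4 higher and 3 lower with all 15 libraries). Ccl2, which attracts monocytes, read 3.20, 3.02 and 3.05 CPM in SNP100, 6.41, 7.93 and 6.32 in HMSNP and 4.08, 3.18 and 4.95 in the controls (log2 fold change 1.165, SE 0.12, adjusted p = 1.03e-05). The chemokine Ccl9 read 204, 189.7 and 214 CPM in SNP100, 358, 362 and 329 in HMSNP and 210.5, 205 and 294 in the controls (log2 fold change 0.80, SE 0.051, adjusted p = 2.56e-07). Both were highest in HMSNP without overlap. Ccl22 read 0.234, 0.354 and 0.249 CPM in SNP100, 0.588, 0.743 and 0.504 in HMSNP and 0.609, 0.434 and 0.417 in the controls (log2 fold change 1.13, SE 0.30, adjusted p = 0.0139), a call that held in 11 of the 15 alternative fits. Ccl4 was called higher (log2 0.37, SE 0.10), but its groups overlapped and the call held in 10 of the 15 alternative fits and 2 of the 6 that left out a library. Ccl3 (log2 0.05, 95% interval -0.16 to 0.25), Il1b (log2 0.66, 95% interval -0.76 to 2.07) and Il1rn (log2 -0.11, 95% interval -0.21 to -0.01) were not called. Vegfa (log2 -0.63, SE 0.051) and Il15 (log2 -0.58, SE 0.13) were called lower. Of the genes whose proteins were on the study's cytokine panel, Tnf was the one tested. It read 46.0, 46.7 and 66.5 CPM in SNP100, 43.1, 44.4 and 49.7 in HMSNP and 50.9, 42.0 and 56.9 in the controls, and was not called (log2 fold change -0.20, SE 0.11, adjusted p = 0.224). Ifng, Il4, Il6, Il12a and Il12b had 0 counts in all 6 libraries, which allows up to 3 counts in a library, and Il5 had 2 counts in HMSNP replicate 3 and 0 in the other 5. Cd80, a costimulatory ligand, read 3.54, 3.70 and 4.49 CPM in SNP100, 5.73, 5.54 and 6.32 in HMSNP and 3.08, 2.98 and 2.55 in the controls (log2 fold change 0.60, SE 0.12, adjusted p = 0.00182), highest in HMSNP.

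Immediate early and AP-1 genes split, with 15 of 49 tested called higher and 11 lower (53.1% called, and 7 higher and 10 lower with all 15 libraries). The growth factor-induced factor Egr2 (log2 0.89, SE 0.14) and the phosphatase Dusp5 (log2 0.63, SE 0.11) rose, while the AP-1 subunit Fosl2 fell (log2 fold change -0.86, SE 0.053, adjusted p = 1.76e-07). Jun had -0.34 and Fos 0.33, called in opposite directions. Of 29 tested p53 targets, 16 were called higher and 4 lower, with a median log2 fold change of 0.23 (69% called, and 9 higher and 1 lower with all 15 libraries). Cdkn1a, the cell cycle inhibitor p21, read 265, 252 and 280.5 CPM in SNP100, 402, 408 and 415 in HMSNP and 337, 319 and 409 in the controls (log2 fold change 0.63, SE 0.043, adjusted p = 4.05e-07). Its controls lay between the particles or with HMSNP. Pmaip1, a killer protein of the BCL2 family (log2 0.76, SE 0.057), Eda2r (log2 0.76, SE 0.10) and Mdm2, the ligase that degrades p53 (log2 0.28, SE 0.037), rose, whereas Bax fell (log2 -0.26, SE 0.039) and Trp53 itself was not called (log2 -0.08, adjusted p = 0.228).

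Of 34 tested genes of the NRF2, heme and iron list 19 were called higher in HMSNP and 3 lower, with a median log2 fold change of 0.26 (64.7% called, and 11 higher and 1 lower with all 15 libraries). Among the 19, the median control lay below the SNP100 mean for 5 and above the HMSNP mean for 4. It lay between the particles for the others, nearer SNP100 for 6 and nearer HMSNP for 4, a description without a test. Slc40a1 (chr1:45947211-45965683), ferroportin, the exporter of iron, read 2.16, 2.53 and 1.72 CPM in SNP100, 4.85, 7.98 and 5.87 in HMSNP and 3.96, 5.12 and 2.92 in the controls (SE 0.18, adjusted p = 4.54e-05). Hmox1, which degrades heme, read 555, 616 and 459 CPM in SNP100, 615, 1109 and 811 in HMSNP and 1537, 1699 and 1283 in the controls (log2 fold change 0.65, SE 0.16, adjusted p = 0.0074). The lowest HMSNP library was level with the highest SNP100 library, both particles were below all controls, and the call was lost in 2 of the 15 alternative fits. Slc48a1, which carries heme out of the phagolysosome (log2 0.69, SE 0.078), Slc11a1, which carries metal ions out of it (log2 0.60, SE 0.053), and Blvrb, a biliverdin reductase (log2 0.53, SE 0.060), rose.

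In the glutathione and thioredoxin branch Srxn1 read 126, 126 and 121 CPM in SNP100, 187, 231 and 197 in HMSNP and 155, 169 and 147 in the controls (log2 fold change 0.73, SE 0.061, adjusted p = 2.46e-06), and HMSNP was above both groups. Gclm (log2 0.67, SE 0.087) and Gclc (log2 0.38, SE 0.045), the subunits of the enzyme that limits glutathione synthesis, Txnrd1 (log2 0.56, SE 0.050) and Gsr (log2 0.48, SE 0.054) were called higher. For Gclm the controls, at 372, 427 and 338 CPM, overlapped HMSNP, at 316, 429 and 351 CPM, and lay above SNP100, at 233, 247 and 211 CPM. HMSNP replicate 2 was the highest of its group for Hmox1, Slc40a1, Srxn1, Gclm and Txnrd1. Nqo1, a quinone reductase often used to read NRF2, was not called (log2 0.42, adjusted p = 0.182), and Txn1, thioredoxin (log2 -0.24, SE 0.040), Blvra (log2 -0.30, SE 0.036) and Me1 were the 3 members called lower. The call of Txn1 was lost with the transcript length offset (log2 -0.07, adjusted p = 0.194). Neither Txn1 nor Blvra was called with all 15 libraries in the model. The ferritin genes Fth1 (log2 -0.05, 95% interval -0.16 to 0.07) and Ftl1 (log2 -0.05, 95% interval -0.15 to 0.05) were not called.

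Of 48 lysosomal enzymes and membrane proteins 22 were called lower in HMSNP, 4 were called higher and 22 were not called, with a median log2 fold change of -0.10 (54.2% called). Among the 22 called lower, the median control lay below the HMSNP mean for 8 and above the SNP100 mean for 1. It lay between the particles for the others, nearer HMSNP for 7 and nearer SNP100 for 6, a description without a test. Ctsh, a cathepsin with aminopeptidase activity, read 572, 585 and 619 CPM in SNP100, 301, 326 and 289.6 in HMSNP and 495, 538 and 739.8 in the controls (log2 fold change -0.94, SE 0.050, adjusted p = 6.21e-08), and HMSNP was below every other library. Gla, alpha-galactosidase A, read 76.3, 78.9 and 71.5 CPM in SNP100, 53.9, 50.5 and 50.8 in HMSNP and 48.4, 52.2 and 61.5 in the controls (log2 fold change -0.54, SE 0.046, adjusted p = 3.07e-06), with the controls overlapping HMSNP. The abundant cathepsins Ctsb (log2 -0.06), Ctsd (log2 -0.05) and Ctsl (log2 0.07) were not called, and Ctsc, which activates serine proteases, was called higher (log2 fold change 0.52, SE 0.052, adjusted p = 1.22e-05). With all 15 libraries in the model 6 were called lower and 2 higher.

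Subunits of the vacuolar proton pump, which acidifies the lysosome, were called lower in 11 of 17 cases and higher in 2, with a median log2 fold change of -0.18 (76.5% called). Among the 11 called lower, the median control lay below the HMSNP mean for 4. For the others it lay between the particles, nearer HMSNP for 5 and nearer SNP100 for 2, again without a test. Atp6v1g1 read 176, 170.1 and 174 CPM in SNP100, 117, 112 and 109.5 in HMSNP and 137, 123 and 213 in the controls (log2 fold change -0.61, SE 0.040, adjusted p = 2.79e-07), and the controls lay between the particles or above SNP100. Atp6v0a1 (log2 0.35, SE 0.045) and Atp6v1b2 (log2 0.22, SE 0.036) were the subunits called higher. With all 15 libraries in the model 3 subunits were called lower and none higher. Of 29 genes for Rag GTPases, folliculin and autophagy, 9 were called lower and 4 higher (44.8% called, and 0 higher and 4 lower with all 15 libraries). Rragd, a Rag GTPase that recruits mTORC1, read 1.30, 1.47 and 0.803 CPM in SNP100, 0.5, 0.504 and 0.458 in HMSNP and 0.304, 0.260 and 0.443 in the controls (log2 fold change -1.28, SE 0.26, adjusted p = 0.00237), a gene of low level that was highest in SNP100. Flcn, its activator folliculin (log2 -0.48, SE 0.045), and the folliculin partner Fnip2 (log2 -0.37, SE 0.048) fell, and the factor gene Tfeb rose (log2 0.39, SE 0.050). Sqstm1, the autophagy receptor p62, was not called (log2 0.003, 95% interval -0.11 to 0.12).

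The TFEB element TCACGTGA, which reads the same on both strands, was found before 3 of 48 lysosomal genes (6.25%) and 1.11% of all tested protein-coding genes, and before 0 of 17 pump subunits and 0 of 29 genes of the Rag and autophagy list, which says only that these letters are not in those windows. Gla, of the 3 the one with the largest decrease, holds it 2 times, and the copy nearer its start is shown in capitals (chrX:133501931-133501960, minus strand).
Gla: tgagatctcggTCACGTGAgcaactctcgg

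Of 39 tested receptors that bind particles, microbes and debris 17 were called higher in HMSNP and 5 lower, with a median log2 fold change of 0.16 (56.4% called, and 10 higher and 3 lower with all 15 libraries). Clec7a, the beta-glucan receptor dectin-1, read 9.34, 9.66 and 9.25 CPM in SNP100, 19.5, 21.8 and 20.1 in HMSNP and 13.3, 11.9 and 13.8 in the controls (log2 fold change 1.13, SE 0.064, adjusted p = 1.05e-07). Clec4n, dectin-2, read 14.9, 14.8 and 12 CPM in SNP100, 27.7, 36.1 and 30.5 in HMSNP and 21.1, 22.8 and 25.0 in the controls (log2 fold change 1.19, SE 0.095, adjusted p = 1.71e-06). With Cd36 these were the members past 2-fold, and in all 3 the HMSNP libraries exceeded every control. The complement receptor C3ar1 (log2 0.49, SE 0.045), the integrin Itgax (log2 0.64, SE 0.073) and the lipopolysaccharide coreceptor Cd14 (log2 0.31, SE 0.052) rose. Gas6, a bridge between dying cells and their receptors (log2 fold change -0.64, SE 0.046, adjusted p = 6.84e-07), and Olr1, a receptor for oxidized lipoprotein, fell. Olr1 read 9.52, 10.1 and 9.19 CPM in SNP100, 4.97, 6.21 and 6.21 in HMSNP and 29.0, 31.2 and 18.8 in the controls (log2 fold change -0.71, SE 0.097, adjusted p = 0.000129), so that both particles were below all controls. The silica receptor Msr1 (log2 0.11, adjusted p = 0.0834), Tlr2 (log2 0.05) and Tlr4 (log2 0.06) were not called.

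Of 39 uptake, actin and adhesion genes 19 were called higher and 4 lower (59% called, and 6 higher and 1 lower with all 15 libraries). Cd44, the hyaluronan receptor, read 289, 274 and 301 CPM in SNP100, 489, 528 and 494 in HMSNP and 367, 383 and 315 in the controls (log2 fold change 0.82, SE 0.045, adjusted p = 9.92e-08). Actg1, cytoplasmic gamma-actin, rose (log2 fold change 0.64, SE 0.041, adjusted p = 2.42e-07), whereas Actb, beta-actin, was not called (log2 0.11, 95% interval 0.01 to 0.21). For Cd44 the controls lay between the particles. The integrin subunit Itgb2 rose (log2 0.38, SE 0.045) and Itga4 fell (log2 -0.37, SE 0.057). Among inflammasome and cell death genes 8 of 26 were called higher and 5 lower (50% called, and 3 higher and 2 lower with all 15 libraries). Nlrp3, the sensor of lysosomal damage, read 95.5, 97.0 and 108 CPM in SNP100, 134, 146 and 144 in HMSNP and 98.2, 112 and 84.3 in the controls (log2 fold change 0.51, SE 0.052, adjusted p = 1.39e-05), highest in HMSNP. Mlkl, the effector of necroptosis, rose (log2 0.46, SE 0.069), and Gsdmd, the pore-forming gasdermin (log2 -0.16, adjusted p = 0.0297, called in 10 of the 15 alternative fits), and Bmf, a killer protein of the BCL2 family (log2 fold change -0.58, SE 0.074, adjusted p = 7.51e-05), fell. Of 17 osteoclast genes 7 were called higher, among them the fusion genes Dcstamp (log2 0.85) and Ocstamp (log2 1.05), and 4 lower, among them the bone-resorbing protease gene Ctsk (log2 -0.42), Acp5, tartrate-resistant phosphatase (log2 -0.37), and Car2, a carbonic anhydrase (log2 fold change -0.85, SE 0.060, adjusted p = 4.97e-07). Of these 17, 64.7% were called, and 3 higher and 2 lower with all 15 libraries.

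**Figure D4:**
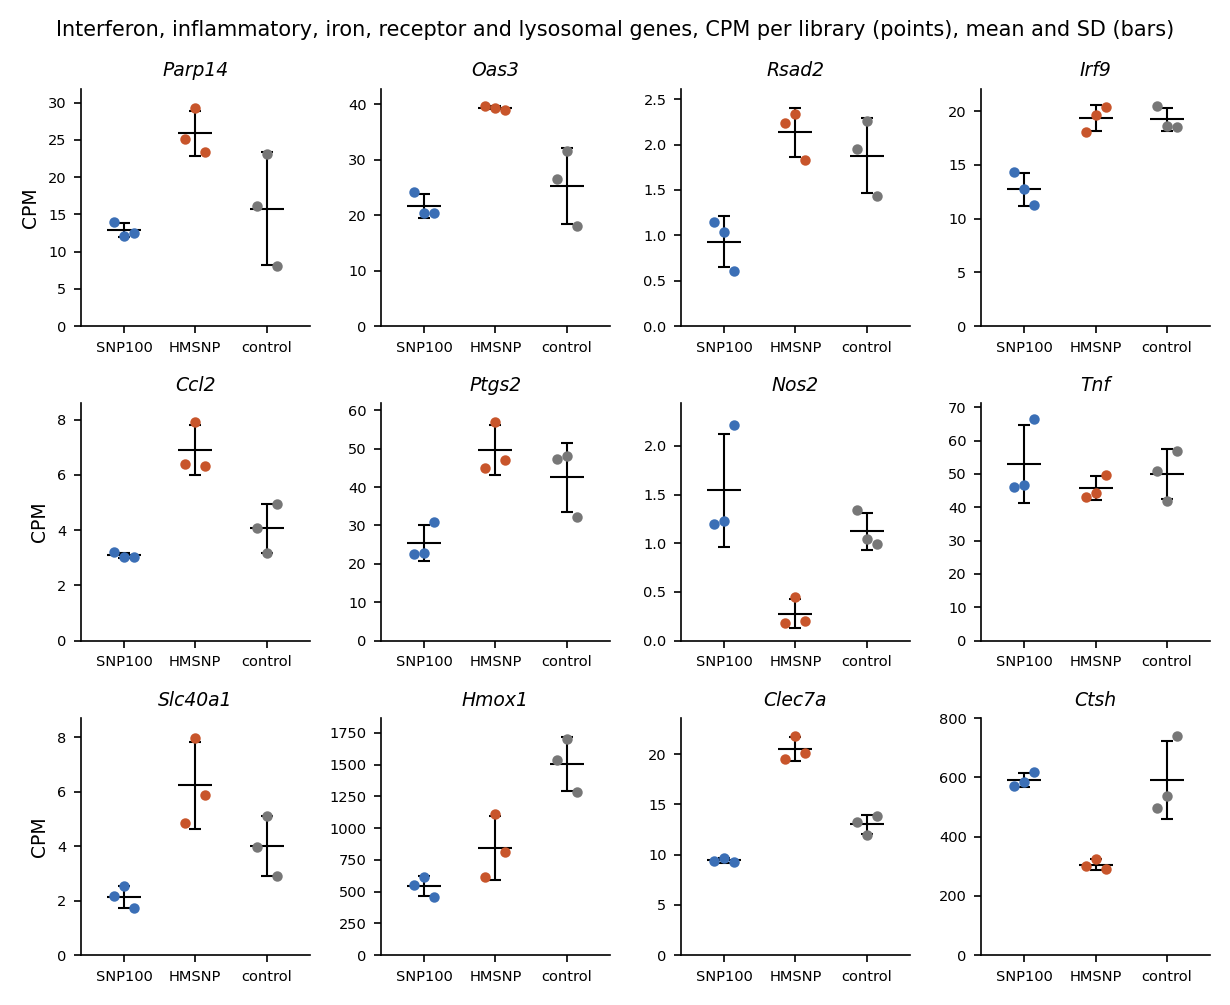
CPM per library (y, from 0) of 12 interferon, inflammatory, iron, receptor and lysosomal genes in the SNP100-treated, HMSNP-treated and nontreated groups, with the mean and SD of 3 libraries as bars. HMSNP lies above SNP100 for Parp14, Oas3, Rsad2, Irf9, Ccl2, Ptgs2, Slc40a1 and Clec7a and below it for Nos2 and Ctsh, while the groups overlap for Tnf and touch for Hmox1.

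Cytosolic heat shock chaperones were called higher in 4 of 20 cases and lower in 4 (40% called, and 2 higher and 2 lower with all 15 libraries). Hspa1b, the inducible HSP70, read 19.6, 17.1 and 20.9 CPM in SNP100, 9.67, 9.65 and 8.48 in HMSNP and 26.6, 27.9 and 27.7 in the controls (log2 fold change -1.05, SE 0.084, adjusted p = 1.85e-06), and HMSNP was below the rest. It has a near-identical copy, Hspa1a, to which reads may be assigned and which was not called (log2 -0.62, adjusted p = 0.218). Of 14 metallothionein and zinc transporter genes 5 were called higher and 1 lower (42.9% called, and 0 higher and 0 lower with all 15 libraries). The importers Slc39a10 (log2 0.46, SE 0.052) and Slc39a14 (log2 0.46, SE 0.041) were called higher, Mt2 was not called (log2 -0.09) and Mt1 was called lower (log2 -0.14, adjusted p = 0.0355), a call that held in 8 of the 15 alternative fits and was lost with the transcript length offset. Of 34 glycolysis and hypoxia genes, 4 were called higher and 5 lower, and 0 higher and 3 lower with all 15 libraries. That is 26.5% called, against 26.8% of all tested genes and 44% of the better expressed ones. Ldha, lactate dehydrogenase, was not called (log2 -0.02, 95% interval -0.10 to 0.07).

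Ribosomal protein genes were lower in HMSNP by small amounts, with 72 of 75 called lower, 0 higher and a median log2 fold change of -0.28. Among the called members the log2 fold changes ran from -0.45 (Rps21) to -0.14 (Rpl8), and Rpl29 (log2 -0.09), Rpl6 (log2 -0.08) and Rpl7 (log2 -0.06) were the members not called. These are short transcripts, and the difference between the particles followed transcript length across genes. In 10 bins of genes the median log2 difference of HMSNP from SNP100 was -0.167 in the shortest (median length 877 bases) and 0.129 in the longest (8441.5 bases). With the length offset 48 ribosomal protein genes were called lower with a median of -0.15, and with all 15 libraries in the model 0 were called. Many have pseudogenes that may share their reads.

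Replication-dependent histone genes, whose RNAs lack a poly(A) tail, had a median of -0.79. Of 56 tested, 12 were called lower and 2 higher, at any size a share close to the background (25% against 26.8%). All 12 called lower were at least 2-fold lower, a size called for 1.05% of all tested genes. In the model of all 15 libraries 5 were called lower and 0 higher. With the 16 members that had at most 3 counts in every library of a group set to their bound the median was -0.58. Other members were well above that floor in some libraries. H2ac15 read 0.156, 6.83 and 7.31 CPM in SNP100, 0.0588, 6.23 and 0.0229 in HMSNP and 0.365, 4.37 and 7.99 in the controls, low and high libraries in every group, and was not called (log2 -1.18, adjusted p = 0.452). Of 13 mitochondrially encoded genes 2 were called lower, 15.4% against 26.8% of all tested genes, and 0 with all 15 libraries. The gene mt-Co1 read 4571, 7018 and 6839.7 CPM in SNP100 and 4207, 3382 and 5976 in HMSNP, which overlap (log2 fold change -0.43, SE 0.18, adjusted p = 0.0934). DNA replication genes were called higher in 6 of 47 cases and lower in 12, and mitosis genes higher in 7 of 40 and lower in 6. These are 38.3% and 32.5% called, above the 26.8% of all tested genes and below the 44% of the better expressed ones. With all 15 libraries in the model 1 replication gene was called in each direction and 0 mitosis genes. Their median log2 fold changes were -0.03 and 0.01. Pcna, the replication clamp, fell (log2 -0.31, SE 0.043), and Hmmr, a spindle protein gene, rose (log2 0.28, SE 0.036).

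**Figure D5:**
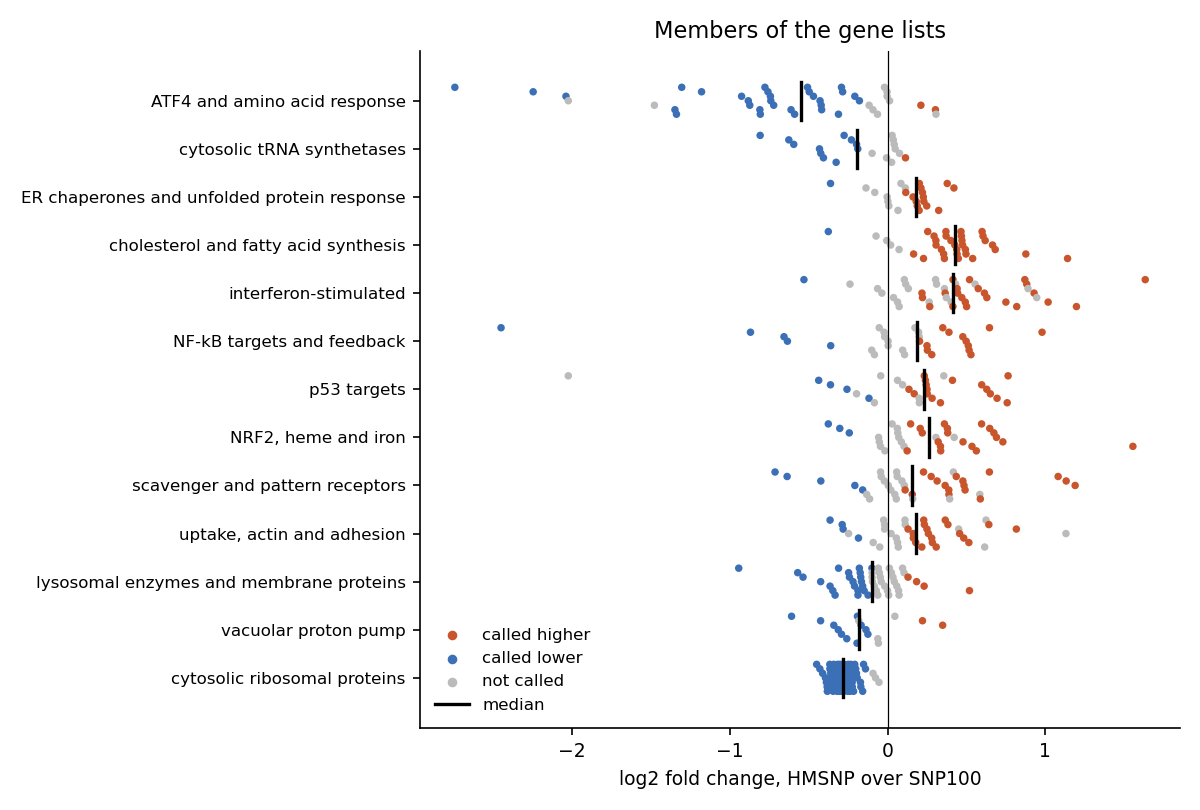
Log2 fold change of HMSNP over SNP100 (x) for the tested members of 13 gene lists (rows), each point 1 gene, in orange where called higher, blue where called lower and grey where not called, with the list's median as a bar. The medians lie at -0.55 for the ATF4 list, 0.43 for cholesterol and fatty acid synthesis, 0.41 for interferon-stimulated genes and -0.28 for ribosomal protein genes.

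The study singles out 5 genes in both particle groups. Pmp22, a myelin and junction protein gene, read 59.1, 61.3 and 60.3 CPM in SNP100, 67.2, 64.8 and 59.8 in HMSNP and 34.1, 33.8 and 39.8 in the controls, and did not differ detectably between the particles (log2 fold change 0.10, SE 0.047, adjusted p = 0.165). Atf3 read 45.4, 48.4 and 45.1 CPM in SNP100, 57.2, 58.2 and 54.8 in HMSNP and 30.8, 31.1 and 31.6 in the controls, so that both particles were above the controls and HMSNP was the higher. Pald1, a phosphatase-like gene (log2 -0.19, SE 0.046), was lower in HMSNP, as were Olr1 and Ddit4. These 5 were chosen in the study on these libraries and are no independent evidence of a direction.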

How the data were processed

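The series holds RNA-seq of RAW 264.7 cells, 15 libraries in 5 groups. Per the submitters' processing notes, reads were trimmed with cutadapt 1.16, aligned to GRCm39 with STAR 2.7.9a and counted with featureCounts 1.6.3. The authors deposited raw counts per gene, which are not normalized, in 1 table, and its genes were matched to GENCODE vM39. The kit was directional and selected poly(A) RNA, and the strand setting of counting is not given in the sources used here.

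The 3 HMSNP and 3 SNP100 libraries were fitted alone. Genes with at least 10 counts over the 6 libraries were tested on the deposited counts with TMM scaling and edgeR 4.0.16's quasi-likelihood test in R 4.3.3, with Benjamini-Hochberg adjustment over all tested genes at 0.05. The fit was also run on simulated counts with known fold changes. These gave every gene the same coefficient of variation between libraries (0.0495), so that run does not cover genes with a wider spread. Alternatives were DESeq2 1.42.0, RLE scaling, other filters, fits with all 15 or the 12 treated libraries, the replicate number as a block, offsets for transcript length or GC content (lowess), and leaving out each library. CPM used one TMM scale over the 15 libraries. The study used DESeq2 with a minimum of 10 counts.

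Named genes were the 12 largest increases and the 12 largest decreases called at 0.05, averaging 1 CPM or more, without overlap between the groups, members of the gene lists, and the genes of the study's cytokine panel with Cd80. The members and lists were chosen with earlier results of these data known, so lists are described by counts and medians and were not tested. A group with at most 3 counts in every library was taken as at the floor, and counting floors cover counting error only. Some members of the lists are counted but not reported here by name.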

Additional observations from a re-analysis of the deposited data

How the results depend on the processing

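Of the 4 counts, genes higher, lower, and at least 2-fold higher or lower in HMSNP, the fit of all 15 libraries moved each, to 460, 437, 61 and 99, and DESeq2 moved the 2-fold counts to 53 and 84. The other alternatives stayed within 1.5 times of each count. No filter gave 2537, 2448, 130 and 229, and the length offset 2124, 2037, 128 and 153. With the length offset the median went from 0.23 to 0.14 for p53 targets and from 0.26 to 0.17 for the NRF2, heme and iron list. It went from 0.18 to 0.11 for NF-kB targets, from 0.18 to 0.13 for ER chaperones and from -0.18 to -0.12 for the proton pump. The medians of the ATF4 and interferon lists were -0.53 and 0.44 with the offset, against -0.55 and 0.41. Leaving out 1 library gave 1873 to 2546 higher, 1623 to 2142 lower, 93 to 113 at least 2-fold higher and 129 to 199 at least 2-fold lower. With the replicate number as a block the counts were 2337, 1842, 95 and 149. In their deviations from the group mean, same-numbered libraries correlated at 0.0599, -0.389 and -0.18 over 10679 genes. Pairs with different numbers ran from -0.255 to 0.374. Deviations from a mean of 3 libraries constrain each other, so these values cannot show whether the numbers pair the libraries. Of the 174 called genes named in the text, 129 were called in the same direction in each of the 15 alternatives and 164 in each fit that left out 1 library. Mt1 turned from -0.14 to 0.036 under the length offset, where it was not called, and Slc7a11 and Irf7 lay close to the threshold. The cause was not tested. Depth limits genes under about 1 CPM, such as the histones and Gbp2, and 104 of the 215 tested genes named here overlap a gene on the opposite strand, with which reads may be shared because the strand setting is not known. The 3 libraries of a group limit the precision throughout.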

Other observations

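Transporters of osmolytes lay outside the rule for named genes and were chosen after their values were seen. Slc6a12, which imports betaine and GABA, read 661, 676 and 678 CPM in SNP100, 241, 264 and 257 in HMSNP and 684, 688 and 690.4 in the controls (log2 fold change -1.39, SE 0.041, adjusted p = 5.36e-10). Slc5a3, which imports myo-inositol, read 93.7, 101 and 88.3 CPM in SNP100, 39.1, 37.3 and 35.0 in HMSNP and 84.6, 96.2 and 53.5 in the controls (log2 fold change -1.34, SE 0.056, adjusted p = 1.16e-08), and it shares exons with Mrps6. Both were lower in HMSNP without overlap. Slc6a6, the taurine importer (-0.03, 95% interval -0.11 to 0.05), and Nfat5, the factor that drives osmolyte uptake (0.13, 95% interval -0.03 to 0.28), were not called. Cxcr4, the receptor of the chemokine CXCL12, chosen in the same way, read 68.3, 68.9 and 62.3 CPM in SNP100, 25.6, 28.1 and 23.3 in HMSNP and 44.8, 52.9 and 44.6 in the controls (log2 fold change -1.37, SE 0.063, adjusted p = 2.63e-08).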
